A study of Mus musculus with 13 samples.

Results

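Eotaxins and monocyte chemoattractant chemokines are small secreted proteins that draw leukocytes into tissue, and 6 of their genes, Ccl2, Ccl7, Ccl8, Ccl11, Ccl12 and Ccl24, were followed across the cells of mouse lung. The members were taken by gene symbol from the 31053 genes of a droplet single-cell RNA sequencing table, and each symbol matched 1 Ensembl identifier. All 6 were detected. Cells were barcodes of libraries 1, 2, 3 and 7 in which mitochondrial genes gave at most 10% of the unique molecular identifiers (UMIs, each of which marks 1 captured RNA molecule), which left 20856 of 24344 barcodes in these libraries and of 37344 in the whole table.

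The study dissociated whole mouse lung and compared control animals with asthma induced by ovalbumin, with emphysema induced by repeated instillation of porcine pancreatic elastase (PPE-emphysema) and with a recovery model that was given elastase only once (PPE-recovery), using a single C57BL/6 mouse for each condition according to its methods. Its labels name 13 samples, 9 of them in the groups Acute injury, Con and emphysema. The study also compared control, acute injury and emphysema lungs by RNA sequencing apart from its single-cell experiment. The remaining labels, Asthma, Control, PPE-emphysema and PPE-recovery, name the groups of the single-cell experiment. The deposited table holds 7 numbered libraries and nothing that links a number to a label, so the libraries could be assigned to no condition and are named here by number alone. Values are therefore given for each library without replicates, no test between conditions was possible, and every interval is an exact 95% interval that covers counting error only.

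Chemokines of the CC family carry adjacent cysteines near the start of the mature protein and act on G protein-coupled receptors of the target leukocyte. The eotaxins Ccl11 and Ccl24 act through Ccr3, the receptor that defines eosinophils, and both are known targets of interleukin-4 and interleukin-13 signalling through Stat6. Ccl2, Ccl7 and Ccl12 act mainly through Ccr2 and release Ly6C-high monocytes from bone marrow and draw them into inflamed tissue, Ccl7 also binds Ccr1 and Ccr3, and mouse Ccl8 is a ligand of Ccr8. In lung, macrophages and fibroblasts are known sources of these proteins.

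Of the members, 5 lie side by side on the plus strand of chromosome 11 in GRCm38, the assembly that the submitters' notes call mm10, within 81229 bases. In order, Ccl2 (ENSMUSG00000035385) spans 82035571 to 82037453, Ccl7 (ENSMUSG00000035373) spans 82045712 to 82047525, Ccl11 (ENSMUSG00000020676) spans 82057823 to 82062955, Ccl12 (ENSMUSG00000035352) spans 82101845 to 82103400 and Ccl8 (ENSMUSG00000009185) spans 82115185 to 82116799. Ccl24 (ENSMUSG00000004814) lies apart, on the minus strand of chromosome 5 from 135569937 to 135573049. Each has 3 exons in its first GENCODE transcript. The coding sequences around the adjacent cysteine codons show the pair that the members share and bases around it that differ. They are shown 5′ to 3′ as 60 bases each, running from exon 1 into exon 2, with the codons of the cysteine pair in capitals:

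Ccl2: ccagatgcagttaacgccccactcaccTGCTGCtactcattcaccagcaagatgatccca
Ccl7: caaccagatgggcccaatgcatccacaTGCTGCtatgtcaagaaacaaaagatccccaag
Ccl12: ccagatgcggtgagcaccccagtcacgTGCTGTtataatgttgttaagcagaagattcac
Ccl8: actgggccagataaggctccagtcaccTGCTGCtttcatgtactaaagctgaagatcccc
Ccl11: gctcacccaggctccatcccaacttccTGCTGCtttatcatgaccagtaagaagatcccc
Ccl24: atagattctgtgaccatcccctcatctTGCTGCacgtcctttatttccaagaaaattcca

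On GRCm38, introns included, these stretches lie at chr11:82035734-82036538 for Ccl2, chr11:82045853-82046570 for Ccl7, chr11:82101969-82102666 for Ccl12, chr11:82115303-82116088 for Ccl8, chr11:82058033-82061728 for Ccl11 and chr5:135572638-135572903 for Ccl24. Ccl12 spells the second cysteine TGT and the other members spell it TGC. In these stretches, which were laid against each other without gaps, Ccl8 and Ccl12 had the same base at 38 of 60 positions and Ccl7 and Ccl8 at 20. Over whole coding sequences, identity between members was taken as a share of all alignment columns, gaps included. It ran from 50.9% of 456 columns for Ccl2 and Ccl8 to 69.1% of 311 columns for Ccl7 and Ccl11. Ccl7 and Ccl8 reached 68.2% of 314 columns and Ccl8 and Ccl12 67.8% of 329, so the ungapped stretches do not rank the pairs by divergence. Ccl2 has 444 coding bases and Ccl7, Ccl8 and Ccl11 have 291, so a low share can reflect length as well as divergence. The longest run of bases that any 2 of the transcripts had in common was 23, between Ccl2 and Ccl7, so that no longer exact stretch was available for reads to be shared between members.

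RefSeq promoter sequence was at hand for Ccl8 and Ccl12, the pair with UMIs most confined to the same macrophages. The 250 bases before each start are shown for chr11:82114935-82115184 (Ccl8) and chr11:82101595-82101844 (Ccl12), both on the plus strand of GRCm38.p6, with matches to the searched motifs in capitals:

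Ccl8: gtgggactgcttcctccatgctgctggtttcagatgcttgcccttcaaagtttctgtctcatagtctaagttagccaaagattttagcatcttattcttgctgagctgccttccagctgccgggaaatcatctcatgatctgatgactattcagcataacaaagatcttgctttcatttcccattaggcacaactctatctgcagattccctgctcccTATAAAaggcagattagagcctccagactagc
Ccl12: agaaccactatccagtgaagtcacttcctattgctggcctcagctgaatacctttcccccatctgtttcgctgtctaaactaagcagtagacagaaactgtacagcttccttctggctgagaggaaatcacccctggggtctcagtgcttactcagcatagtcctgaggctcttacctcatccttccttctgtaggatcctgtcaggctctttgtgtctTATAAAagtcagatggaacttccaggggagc

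Both hold the TATA box letters TATAAA, beginning 32 bases before the start in Ccl8 and 31 bases before it in Ccl12. These letters were present on either strand in 12.4% of the 32851 RefSeq promoters cut to the same length. Neither window held the STAT letters TTCNNNGAA (7.02% of promoters) or the Stat6 form of them with 1 more base between TTC and GAA (5.85%). The AP-1 letters TGANTCA (6.75%), the interferon response motif of GAAA, NN and GAAA (2.98%) and the NF-kB letters GGNNTTTCC (4.93%) were also not in these windows. The motifs were searched on both strands.

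Libraries 1, 2, 3 and 7 kept 4800, 7626, 5129 and 3301 cells with a median of 6800 to 8363.5 UMIs. The cells formed 44 clusters, made without the 6 members, which were given 25 class names from marker genes except for 7, with 772 cells, that stayed unnamed because they held markers of more than 1 lineage or too few markers. Libraries 4, 5 and 6 had 35.3% to 40.6% of their UMIs in hemoglobin genes, against at most 0.031% in the 4 libraries used, and were left aside. Across the 4 libraries 50 barcode sequences occurred more than once, and the cells that carried them had a UMI of a member in at most 7 cells per gene. As a measure of free RNA, B cell-like cells of the 4 libraries together held between 0 and 1.34 CPM of each member (CPM, UMIs of a gene per 1000000 UMIs of the cells). That these cells make none of the members was assumed and not shown. Single libraries differed, with a UMI of Ccl8 in 1.51% of 332 such cells in library 1 against 0.592% over all 4.

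Most members were drawn from 2 macrophage classes. The C1q macrophage-like class (737 cells, led by C1qa, C1qb and C1qc, which encode the first complement component, with all 6 of its markers seen in every library) held the most UMIs of Ccl2, Ccl7, Ccl8 and Ccl12. The Arg1 macrophage-like class (1210 cells, led by Arg1, Mmp12 and Gpnmb, genes of an alternatively activated, tissue-remodelling state) held the most UMIs of Ccl24. These 2 classes together gave 96.3% of the Ccl8 UMIs, 93.2% of those of Ccl12, 83.6% of Ccl7, 76.4% of Ccl24 and 63.7% of Ccl2, and 0.383% of those of Ccl11. Ccl11 came from fibroblasts instead, with 58.7% of its UMIs in 217 adventitial fibroblast-like cells and 31.8% in 1511 alveolar fibroblast-like cells. As this is whole tissue, a library total that is low can come from fewer cells of a class or from less RNA per cell, and the class levels that follow are taken within the cells of the class.

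**Figure D1:**
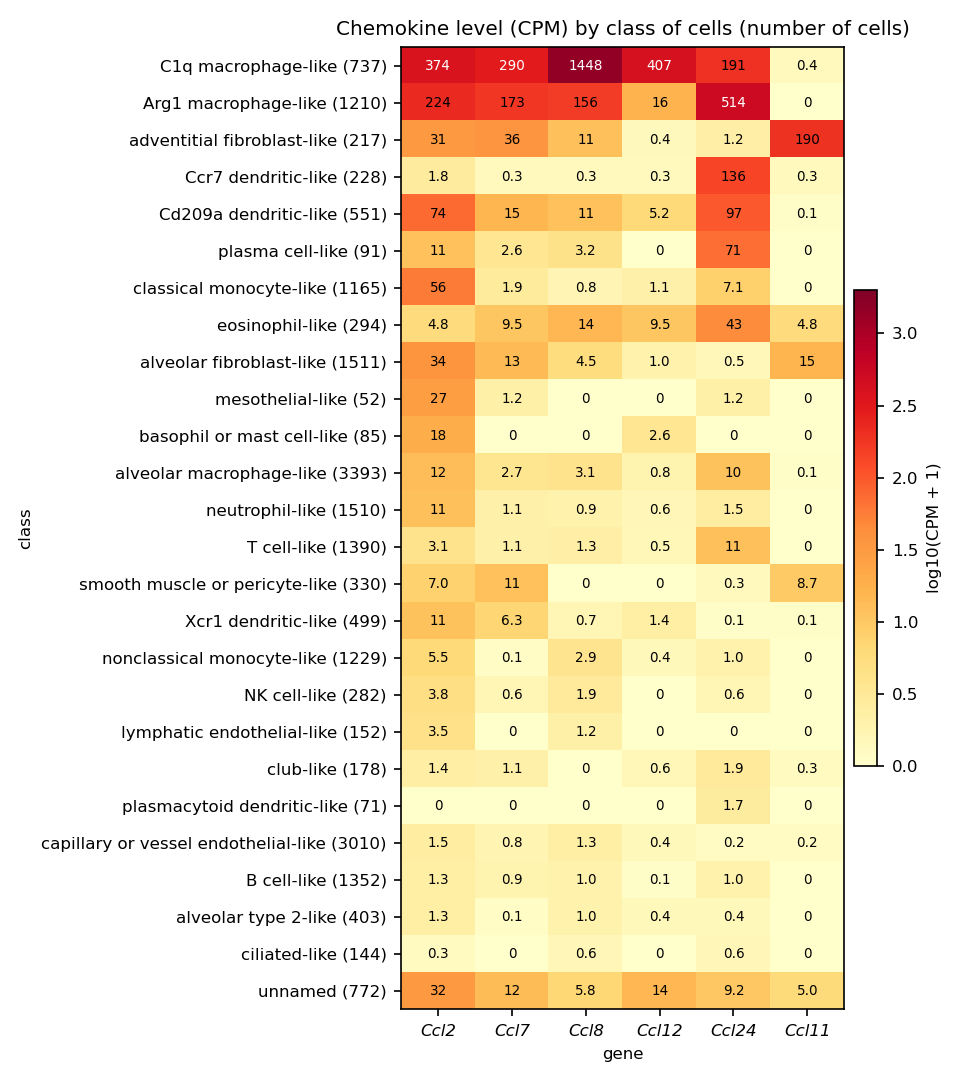
Level of each chemokine (columns, CPM printed in each cell and shaded as log10(CPM + 1)) summed over the cells of each class (rows, number of cells in parentheses) in libraries 1, 2, 3 and 7. Ccl2, Ccl7, Ccl8 and Ccl12 peak in the C1q macrophage-like row at 374, 290, 1448 and 407 CPM, Ccl24 in the Arg1 macrophage-like row at 514 CPM and Ccl11 in the adventitial fibroblast-like row at 190 CPM.

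Ccl8, a monocyte chemoattractant also linked to allergic inflammation, varied most over libraries among the members that the C1q class led. In C1q macrophage-like cells it stood at 2552 CPM in library 1 (95% interval 2497 to 2608), 846 CPM in library 2 (812 to 881), 168 CPM in library 3 (144 to 194) and 880 CPM in library 7 (819 to 946). Library 1 lay above the others and library 3 below them, while libraries 2 and 7 had overlapping intervals. The level over all 4 libraries was 1448 CPM (1422 to 1475) and fell to 694 CPM when library 1 was left out, to 782 CPM with a mitochondrial limit of 5%, to 913 CPM with marker gates in place of clusters and to 927 CPM without the 10 richest cells. The first 2 of these overlap. In this class the median mitochondrial share was 5.77% in library 1 against 3.92%, 4.36% and 4.45% in libraries 2, 3 and 7, so the 5% limit takes out most cells of library 1. Arg1 macrophage-like cells held 264 CPM in library 1, 11.2 CPM in library 2 and 55.3 CPM in library 7, and no UMI in library 3, whose depth leaves room for up to 28.3 CPM. The C1q class was thus above the Arg1 class in each library in which both had UMIs, by 9.65-fold in library 1 (9.11 to 10.2), 75.4-fold in library 2 (40.9 to 158) and 15.9-fold in library 7 (13.7 to 18.5). Outside macrophages no named class exceeded 14.3 CPM of Ccl8 over the 4 libraries. A value of 61.4 CPM in the alveolar fibroblast-like cells of library 1 rested on 1 cell with 54 of the 58 UMIs.

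Ccl12, a mouse ligand of Ccr2, was the member most restricted to the C1q macrophage-like class, which gave 88.6% of its UMIs. It measured 250 CPM (233 to 268) in library 1, 584 CPM (556 to 613) in library 2, 469 CPM (429 to 511) in library 3 and 354 CPM (315 to 396) in library 7. None of these intervals overlapped, with library 2 highest and library 1 lowest, the reverse of Ccl8 for library 1. The pooled level of 407 CPM (393 to 422) was 26.1-fold that of the Arg1 class (22.3 to 30.7), which held 15.6 CPM, and was 248 CPM with marker gates. No other class passed 9.53 CPM, and from the Arg1 class downward no class differed from the next in order beyond counting error. The class next to the Arg1 class was the eosinophil-like cells, with only 2 UMIs (1.15 to 34.4 CPM). Cd209a dendritic-like cells, which followed at 5.19 CPM (3.74 to 7.01), lay below the interval of the Arg1 class (13.3 to 18.2).

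Ccl2, the principal ligand of Ccr2, had the widest range of sources. C1q macrophage-like cells held 158 CPM (145 to 173) in library 1, 566 CPM (538 to 595) in library 2, 386 CPM (350 to 425) in library 3 and 549 CPM (500 to 601) in library 7. Libraries 2 and 7 overlapped, and library 1 was the lowest. In Arg1 macrophage-like cells the level was 83.8 CPM in library 1, 285 CPM in library 2, 132 CPM in library 3 and 389 CPM in library 7. Library 1 again was below libraries 2 and 7, but in library 2 this rested on few cells. There 1 of 97 cells held 130 of the 254 UMIs. Without the 10 richest cells of each library the levels were 46.1, 25.6 and 245 CPM in libraries 1, 2 and 7. A UMI was seen in 20.3%, 21.6% and 31.1% of cells in the same order. The order of the pooled levels ran from C1q (374 CPM) to Arg1 macrophage-like cells (224 CPM), Cd209a dendritic-like cells (73.6 CPM), classical monocyte-like cells (56.3 CPM) and alveolar fibroblast-like cells (34.5 CPM), each above the next beyond counting error, whereas the alveolar and adventitial fibroblast-like cells (31.0 CPM) were not separated (ratio 1.11, 0.875 to 1.44). Classical monocytes, the cells that Ccl2 recruits, had a UMI of Ccl2 in 17.1% of 403 cells in library 1, 19.6% of 322 in library 2, 13.1% of 397 in library 3 and 34.9% of 43 in library 7. In the adventitial fibroblast-like cells 73 of the 75 Ccl2 UMIs came from library 3, 59 of them from 1 cell.

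Ccl7, which shares Ccr2 with Ccl2 and lies next to it on the chromosome, grouped the libraries as Ccl2 did in C1q macrophage-like cells, with libraries 2 and 7 overlapping, library 3 below them and library 1 lowest. Its levels were 116 CPM (104 to 128) in library 1, 446 CPM (421 to 472) in library 2, 272 CPM (242 to 305) in library 3 and 467 CPM (422 to 515) in library 7. Arg1 macrophage-like cells held 31.1 CPM in library 1 and 369 CPM (351 to 388) in library 7, where the C1q class was only 1.27-fold higher (1.13 to 1.41). In library 2 the same ratio was 5.03 (4.01 to 6.4). When library 2 was left out, the Arg1 class held more UMIs of both Ccl2 and Ccl7 than the C1q class, although its CPM stayed lower. Adventitial fibroblast-like cells were the third class for Ccl7 at 35.5 CPM (28.4 to 43.9), with 81 of their 86 UMIs in library 3.

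**Figure D2:**
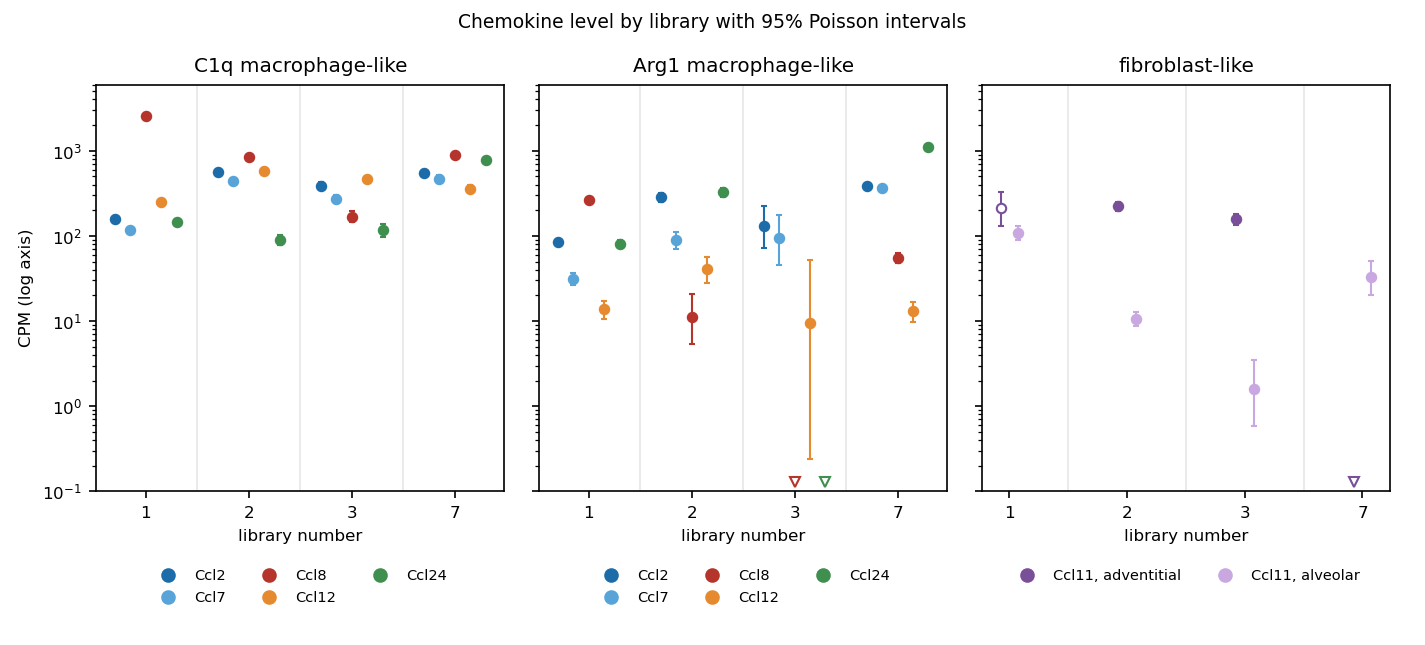
Chemokine level (CPM, log axis) in each of libraries 1, 2, 3 and 7 for the C1q macrophage-like, Arg1 macrophage-like and fibroblast-like classes, with exact 95% Poisson intervals. Open circles stand for fewer than 20 cells and open triangles at the base for a count of 0. Ccl8 is highest in library 1 in both macrophage classes. Ccl24 is highest in library 7 in both, in the C1q class on few cells.

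Ccl24, the eotaxin of macrophages, was centred on library 7, which gave 75% of its 9037 UMIs. Arg1 macrophage-like cells measured 80.8 CPM (73.3 to 88.8) in library 1, 326 CPM (290 to 366) in library 2 and 1108 CPM (1077 to 1140) in library 7, and no UMI in library 3 (up to 28.3 CPM). Library 7 therefore lay above the others, and the pooled 514 CPM (501 to 528) became 114 CPM without it, when the C1q class, at 120 CPM, held more of the Ccl24 UMIs. With all 4 libraries the Arg1 class level was also lower with a mitochondrial limit of 5% (186 CPM), with a filter at 2 standard deviations of UMIs and genes (207 CPM) and with marker gates in place of clusters (278 CPM), and it was 952 CPM without library 1. In C1q macrophage-like cells the level was 146 CPM (133 to 160), 89.8 CPM (78.9 to 102), 116 CPM (96.3 to 138) and 775 CPM (717 to 837) in libraries 1, 2, 3 and 7, again highest in library 7. Dendritic cells were a further source. Ccr7 dendritic-like cells, the migratory type, held 63.2 CPM in library 1, 76.1 CPM in library 2, none in library 3 and 269 CPM in library 7, and Cd209a dendritic-like cells held 42.6, 77.6, 50.4 and 281 CPM in the same order. Classical monocyte-like cells reached 128 CPM in library 7 (6 of 43 cells) and at most 2.25 CPM in the others. Each of these 5 myeloid classes was thus highest in library 7. B cell-like cells of library 7 stayed at 1.05 CPM (0.218 to 3.08), while plasma cell-like cells held 214 CPM there, on 110 UMIs in 3 cells.

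The labelled identity of the Arg1 class was not equal in all libraries. Arg1 itself was at 614, 665 and 3171 CPM in libraries 1, 2 and 7 and had no UMI in the 51 cells of library 3, whose median was 853 UMIs. The markers of alveolar macrophages summed to 12923, 14179, 11176 and 75929 CPM in libraries 1, 2, 3 and 7, with none of the 6 at 0, against 8068, 6880, 775 and 14226 CPM for the 5 Arg1 class markers. The 6 C1q class markers summed to 11462, 6652, 8323 and 3999 CPM in the same cells, above the Arg1 class markers in libraries 1 and 3. The part of these shifts in the Ccl24 and Ccl8 values was not tested. Alveolar macrophage-like cells held 32.9 CPM of Ccl24 in library 7 (29.8 to 36.4), and the Arg1 class held 1108 CPM there. These levels of whole classes do not show what cells of mixed identity within the Arg1 class held.

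Ccl11, the eotaxin of structural cells, was the rarest member, with 784 UMIs in 144 cells. Adventitial fibroblast-like cells (led by Dcn, Pi16 and Lum) measured 224 CPM (198 to 252) in the 110 cells of library 2 and 157 CPM (134 to 182) in the 97 cells of library 3. Libraries 1 and 7 held only 7 and 3 such cells, with 215 CPM (131 to 332) in library 1 and no UMI in library 7, where up to 84.9 CPM is allowed. Alveolar fibroblast-like cells held 109 CPM (89.0 to 132) in library 1, 10.5 CPM (8.69 to 12.6) in library 2, 1.61 CPM (0.592 to 3.51) in library 3 and 32.8 CPM (20.3 to 50.1) in library 7. Library 1 was the highest and library 3 the lowest of these, and a UMI was seen in 14 of 87, 19 of 1024, 2 of 348 and 5 of 52 cells. The value of library 1 rested on few cells, since 4.97 CPM remained after the 10 cells with the most UMIs were taken out. The pooled level of adventitial fibroblast-like cells was 104 CPM with marker gates and 120 CPM without the 10 richest cells. Smooth muscle or pericyte-like cells came next at 8.73 CPM (5.65 to 12.9), and below them no order could be read beyond counting error. Neither the Arg1 macrophage-like nor the B cell-like cells had a UMI of Ccl11, and C1q macrophage-like cells had 3 in 3 cells.

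The chemokine RNA was concentrated in few cells. Of 20856 cells, 6.52% had a UMI of Ccl2, 3.51% of Ccl24, 2.93% of Ccl7, 2.73% of Ccl8, 2.26% of Ccl12 and 0.69% of Ccl11. Yet 50% of the UMIs lay in 21 cells for Ccl8, 18 for Ccl11, 33 for Ccl12, 44 for Ccl24, 48 for Ccl7 and 103 for Ccl2. The richest cells held 600 UMIs of Ccl8 (library 1, C1q class), 372 of Ccl24 (library 7, C1q class) and 174 of Ccl2 (library 2, C1q class). The Poisson intervals above take each UMI as a separate draw and are therefore narrower than the spread between cells.

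**Figure D3:**
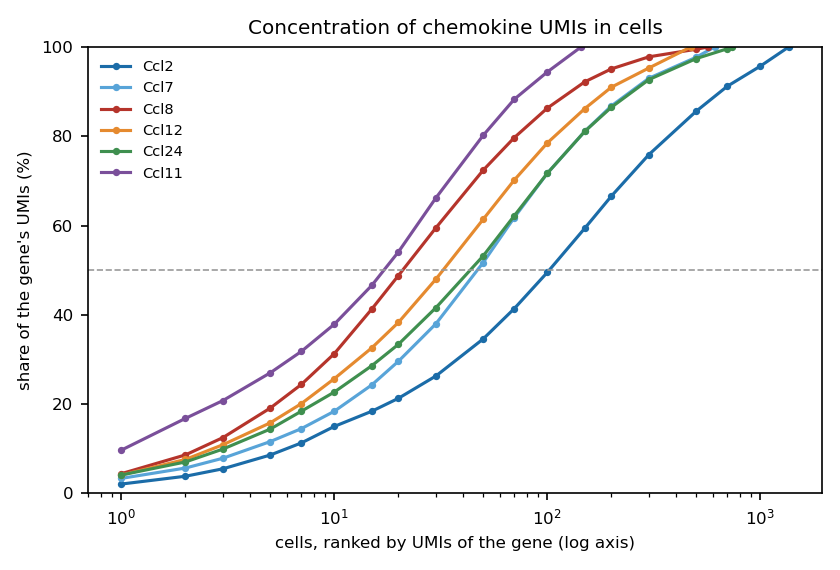
Cumulative share of each chemokine's UMIs (vertical axis, %) against the number of cells ranked by their UMIs of that gene (horizontal axis, log scale), over 20856 cells of 4 libraries. The dashed line marks 50%, which Ccl11 crosses at 18 cells, Ccl8 at 21 and Ccl2 at 103.

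Shares of cells gave a check on the levels that no single rich cell can move. A UMI of Ccl8 was seen in 38.0% of C1q macrophage-like cells in library 1 (32.1 to 44.2), 28.9% in library 2 (23.7 to 34.5), 19.3% in library 3 (12.3 to 27.9) and 30.9% in library 7 (21.1 to 42.1). After each cell was thinned to 1500 UMIs, which left out 8, 14, 15 and 7 shallower cells, the shares were 29.0%, 20.4%, 11.7% and 24.3%, and the interval of library 1 (23.5 to 35.0) lay wholly above that of library 3. The order of libraries 1 and 3 for Ccl8 was therefore kept, at a far smaller ratio than in CPM. Cells with at least 10 UMIs of Ccl8 made up 21.3% (16.5 to 26.7) of the class in library 1 and 3.67% (1.01 to 9.13) in library 3.

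Ccl24 gave the clearest separation by share. In the Arg1 class a UMI was seen in 48.6% of 588 cells in library 7 (44.5 to 52.8), 10.3% of 474 in library 1 (7.75 to 13.4) and 7.22% of 97 in library 2 (2.95 to 14.3), and the thinned shares were 39.2%, 7.18% and 6.25%. Thinning left out 187, 112 and 33 of these cells, and only 7 of 51 remained in library 3, too few to place that library. The 326 CPM of library 2 came from 7 cells, 1 of them with 182 UMIs. By contrast the C1q class of library 7, at 775 CPM, had a UMI of Ccl24 in 32.1% of 81 cells (22.2 to 43.4), an interval that overlaps those of the other libraries, and its level dropped to 41.8 CPM without the 10 richest cells. In that class 1 cell of library 7 held 372 of the 664 UMIs. Only 26 of its 81 cells had a UMI, so taking out 10 removes a larger part of this small class than elsewhere. Without only the richest cell of each library the levels were 101, 75.8, 90.8 and 348 CPM in libraries 1, 2, 3 and 7. Cells with at least 10 UMIs made up 3.42%, 2.11%, 3.67% and 11.1%. The interval of library 7 (5.21 to 20) was apart only from that of library 2 (0.779 to 4.54).

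For the other ligands of Ccr2 the shares in C1q macrophage-like cells differed less than the levels. Ccl2 was seen in 38.4%, 36.6%, 45.0% and 51.9% of cells in libraries 1, 2, 3 and 7, and Ccl12 in 34.6%, 43.0%, 38.5% and 44.4%, all with overlapping intervals. Ccl7 was seen in 18.3% in library 1 (13.8 to 23.5) and 34.6% in library 7 (24.3 to 46.0), and thinning kept that order at 9.80% (6.45 to 14.1) and 24.3% (15.1 to 35.7). Thinned B cell-like cells, whose median before thinning was 4010.5 UMIs against 10142 in the C1q class, had a UMI of Ccl2 in 0.15% and of Ccl12 in none of 1334 cells. The shares in macrophages therefore stood far above those in B cell-like cells, the measure of free RNA used here.

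Within the C1q class the 4 monocyte chemoattractants were found in overlapping cells. Of 737 cells, 268 had no UMI of Ccl2, Ccl7, Ccl8 or Ccl12, and 76 had all of them. The median depth of these groups was 9129.5 and 10599.5 UMIs. Among the 183 cells with Ccl7, 80.9% also had Ccl2, against 26.7% of the cells without Ccl7. Thinned to 1500 UMIs the same shares were 59.4% and 13.3%. Ccl12 was seen in 61.8% of cells with Ccl8 and 29.5% of those without. Ccl24 stood apart from Ccl12, being present in 22.0% of cells with Ccl12 and 21.3% of cells without, and after thinning in 5.52% and 11.7%. These are shares of cells pooled over libraries and carry no test.

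Dividing the C1q class further, again without the 6 members, placed these cells. Sub-cluster 2, 117 cells led by Folr2, Bmp2, Cd163 and F13a1 and with Lyve1 at 351 CPM, genes of macrophages that sit along vessels, held 1408 CPM of Ccl2, 1319 CPM of Ccl7, 5086 CPM of Ccl8 and 1361 CPM of Ccl12. It made up 15.9% of the class and gave 57.3%, 69.1%, 53.4% and 50.8% of the class UMIs of these genes. Ccl2 was seen in 80.3% of its cells and Ccl12 in 72.6%. In libraries 1, 2, 3 and 7 its Ccl8 was 12974, 2663, 487 and 2605 CPM, so that the order of libraries 1 and 3 was found within this sub-cluster as well. Its Ccl12 was 981, 1764, 1506 and 578 CPM, and in library 7 sub-cluster 3 (led by Mmp13, Ccl4 and Il1b) held more, at 1023 CPM.

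Sub-cluster 4 (88 cells, led by Gm4951, Chp2 and Stab1, Folr2 at 345 CPM) shared the Ccl8 and Ccl12 of sub-cluster 2, at 4321 and 788 CPM, with lower Ccl2 and Ccl7 (221 and 217 CPM). Sub-clusters 5 and 6, with 85 and 65 cells, had the highest Ccr2 of the class (1554 and 1440 CPM), no UMI of Folr2, and little Ccl8 (25.7 and 4.32 CPM) or Ccl12 (18.6 and 15.1 CPM). Sub-cluster 5 nevertheless gave 63.7% of the Ccl24 of the class, at 850 CPM, which was 518 CPM in library 1, 228 CPM in library 2 and 3037 CPM in library 7. By share of cells the order was another. Ccl24 was seen in 30.6% of sub-cluster 5, which held the cell with 372 UMIs, in 41.9% of sub-cluster 2 and in 95.2% of the 21 cells of sub-cluster 8. Sub-cluster 7, 27 cells led by Igkc and S100a8, carried genes of B cells and neutrophils and 573 CPM of Ccl8.

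In the Arg1 class the sub-clusters differed mainly in Ccl24, Ccl2 and Ccl7. Sub-cluster 6 (104 cells, led by Ccl17, Dcstamp and Mgl2) held 2425 CPM of Ccl24, 623 CPM of Ccl2 and 578 CPM of Ccl7, and gave 48.9% of the Ccl24 of the class. Its Ccl24 was 420 CPM in library 1 and 5496 CPM in library 7. Sub-cluster 2 (248 cells, led by Ch25h, Tmem26 and Chil3, with the highest Arg1 at 3893 CPM) gave a further 40.1% at 828 CPM, with 75.1 CPM in library 1 and 1088 CPM in library 7. Ccl8 was instead highest in sub-cluster 3 (375 CPM, 174 cells, led by Ccl5, AW112010 and Pf4), which also held the most C1qa of this class. Sub-clusters 1 and 4 were shallow, with median depths of 933 and 756 UMIs, and held 896 and 34.9 CPM of Ccl24.

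**Figure D4:**
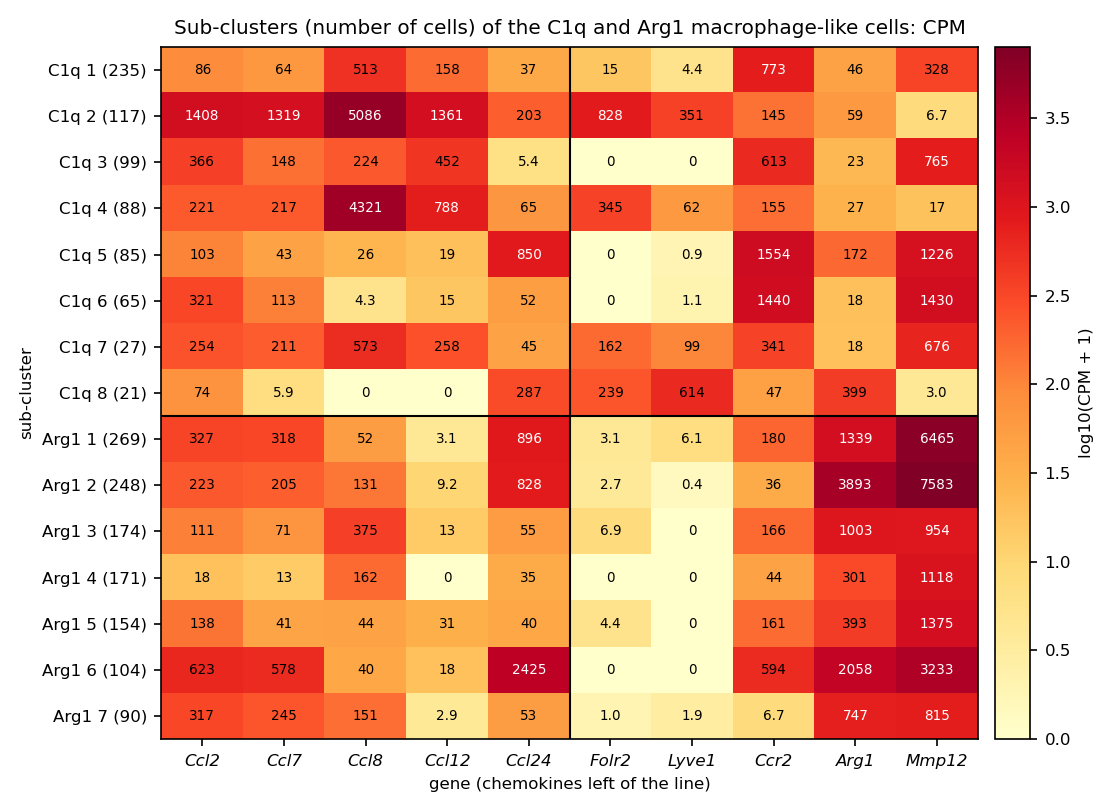
Level (CPM printed, shaded as log10(CPM + 1)) of 5 of the chemokines and of 5 other genes in the sub-clusters of the C1q macrophage-like (upper rows) and Arg1 macrophage-like cells (lower rows), with the number of cells in parentheses. Ccl2, Ccl7, Ccl8 and Ccl12 peak in C1q sub-cluster 2, which has the most Folr2 (828 CPM), and Ccl24 peaks in Arg1 sub-cluster 6 at 2425 CPM.

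To place the library differences, each library was set against the other 3 together in the same class over all genes with at least 50 UMIs there, and a gene was counted when it was at least 2-fold higher. In C1q macrophage-like cells this held for 1.17% of 8830 genes in library 1, 1.2% in library 2, 2.14% in library 3 and 3.22% in library 7. The members past it were Ccl8 in library 1 (3.67-fold, 3.53 to 3.83), Ccl2 (2.08-fold, 1.94 to 2.24) and Ccl7 (2.15-fold, 1.98 to 2.34) in library 2 and Ccl24 in library 7 (6.49-fold, 5.85 to 7.19), and none in library 3. In Arg1 macrophage-like cells the background was 1.72% of 8996 genes in library 1, 4.84% in library 2, 14.6% in library 3 and 3.33% in library 7. Here Ccl8 passed it in library 1 (5.66-fold, 4.94 to 6.52), Ccl12 in library 2 (3.03-fold, 2.03 to 4.42, on 36 UMIs) and Ccl2 (3.44-fold), Ccl7 (9.15-fold) and Ccl24 (9.69-fold, 8.96 to 10.5) in library 7. Ccl8 was thus higher in library 1 and Ccl24 in library 7 in both classes. For Ccl8 the classes were not fully distinct, as the Arg1 class also held C1q class markers. These summed to 11462, 6652, 8323 and 3999 CPM in libraries 1, 2, 3 and 7 of that class. Its Ccl8 was 264, 11.2, 0 and 55.3 CPM in the same order, with shallow cells in library 3. A relation between these values was not tested. For Ccl24 in the C1q class the higher level of library 7 rested on few cells. Without the 10 richest cells of each library its levels there were 36.7, 40.2, 25.1 and 41.8 CPM in libraries 1, 2, 3 and 7. Those 10 cells are a larger part of the 81 cells of library 7 than of the other libraries. Without the richest cell alone the levels were 101, 75.8, 90.8 and 348 CPM. With 1 library for each number, the animal, the condition and the library preparation cannot be told apart.

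The listed chemokine receptors and decoy receptors lay mostly in other cells. Whether Ackr4 and Ccrl2 bind any of the members was not examined here. Of 9 receptors and decoy receptors listed, 8 had at least 100 UMIs, 0 had their highest level in either macrophage class and 2 in fibroblasts. These counts describe the list only, as the share of all genes that peak in these classes was not computed. Ccr3, the eotaxin receptor and a marker used to name the class, was at 867 CPM (746 to 1003) in eosinophil-like cells and 36.2 CPM in the class named for basophils or mast cells. Of its 289 UMIs 182 lay in eosinophil-like and 40 in T cell-like cells. By library the eosinophil-like cells held 642 CPM in library 1 (44 cells, 402 to 972) and 1060 CPM in library 7 (222 cells, 902 to 1237). The 11 and 17 such cells of libraries 2 and 3, with a median depth of 913 and 518 UMIs, had no UMI of Ccr3. Their intervals ended at 333 and 272 CPM, below those of libraries 1 and 7, so that this marker was not seen in the class there. Library 7 held 222 of the 294 eosinophil-like cells. Over all its cells it had the highest Ccl24 of the 4 libraries (203 CPM) and the lowest Ccl11 (0.661 CPM). A relation between these values was not tested.

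Ccr2, the receptor of Ccl2, Ccl7 and Ccl12 and likewise a class marker, was at 988, 1195, 1003 and 1493 CPM in classical monocyte-like cells of libraries 1, 2, 3 and 7. It was also present in the class that held the most of its ligands, at 974, 500, 521 and 771 CPM in C1q macrophage-like cells. Ccr1 and Ccrl2 were led by neutrophil-like cells (1104 and 1146 CPM). Ccr8, the receptor of mouse Ccl8, had 6 UMIs in all, each in a T cell-like cell. Over all libraries the scavenging receptors Ackr1 and Ackr4 were highest in adventitial fibroblast-like cells (33.1 and 28.1 CPM), but 64 of the 80 Ackr1 UMIs and 42 of the 68 Ackr4 UMIs of these cells came from library 3. In library 1 endothelial-like cells held 30.8 CPM of Ackr1 and the 7 adventitial cells none, and in library 2 both classes held 14.1 CPM of Ackr4. Ackr2, which clears inflammatory CC chemokines, was highest in lymphatic endothelial-like cells (interval 87.1 to 118 CPM).

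**Figure D5:**
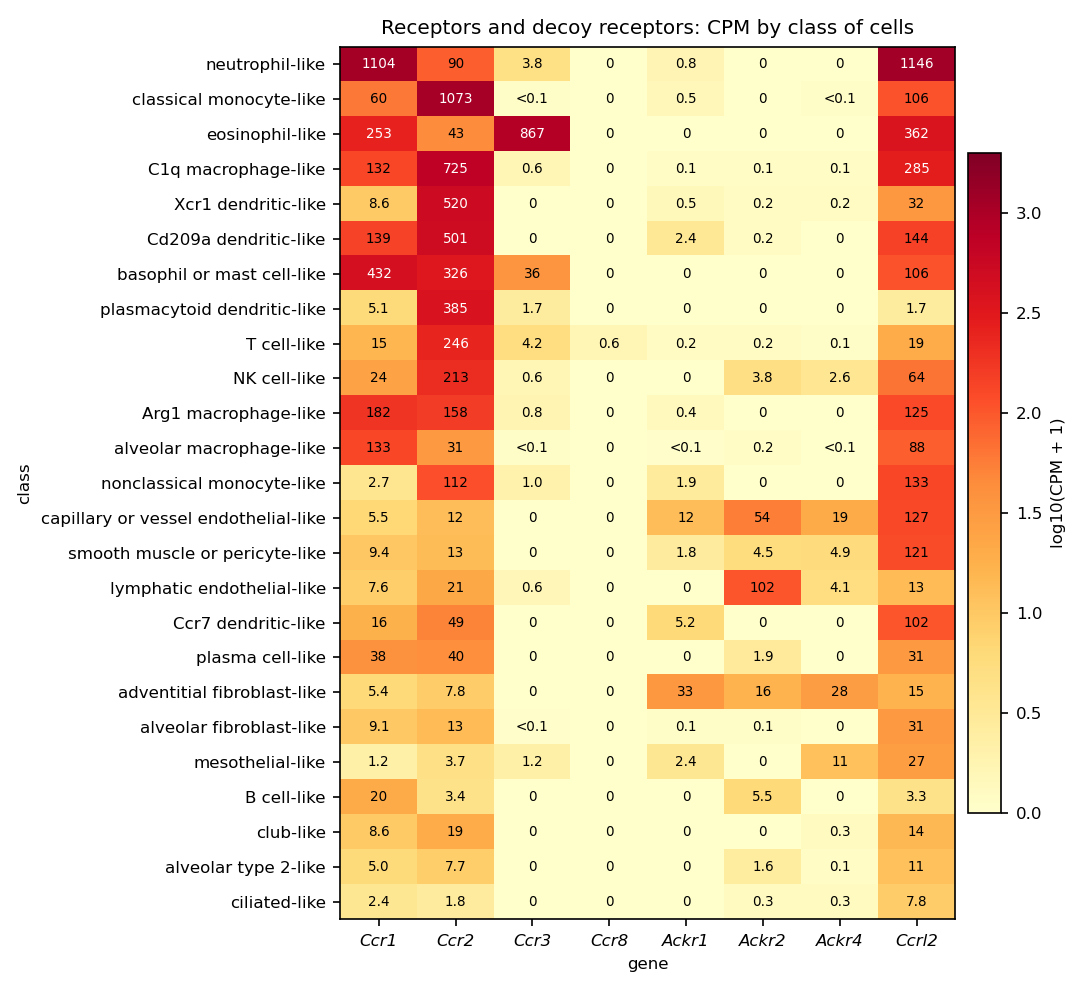
Level (CPM printed, shaded as log10(CPM + 1)) of 8 of the listed chemokine receptors and decoy receptors (columns) in each named class of cells (rows) over libraries 1, 2, 3 and 7. Ccr3, a marker used to name the class, is highest in eosinophil-like cells (867 CPM), Ccr2 is highest in classical monocyte-like cells (1073 CPM) and next in C1q macrophage-like cells (725 CPM), and Ccr8 is near 0.

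Of 9 cytokines known to induce these chemokines, 0 had their highest level in either macrophage class. The share of all genes that peak there was not computed, so this count only describes the list. Il4 was at 338 CPM in eosinophil-like cells and 176 CPM in the class named for basophils or mast cells, in which Il13 reached 98.2 CPM. Il5, the eosinophil growth factor, was found at 6.9 CPM in T cell-like cells. Il33, an alarmin, was led by alveolar type 2-like cells (375 CPM), with adventitial fibroblast-like cells next at 162 CPM. Il1b was highest in neutrophil-like cells and Il6 and Tnf in the basophil or mast class. Tslp was the 1 cytokine of the list that was highest in fibroblasts, at 48.4 CPM in the alveolar type.

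Among 10 cytokine receptors and signalling genes, Il4ra, which senses both interleukin-4 and interleukin-13, was at 87.2 CPM in C1q and 63.2 CPM in Arg1 macrophage-like cells. Across libraries 1, 2, 3 and 7 the Arg1 class held 60.3, 63.9, 113 and 65.5 CPM of Il4ra, with overlapping intervals. Ccl24 in the same cells ran from 0 CPM in the 51 shallow cells of library 3 to 1108 CPM in library 7. A relation between the levels of these genes was not tested. Stat6, the factor downstream of Il4ra, was at 52.7 CPM in library 1 (46.7 to 59.3) and 71.2 CPM in library 7 (63.4 to 79.7) of that class. Il1r1 was highest in adventitial fibroblast-like cells (72.3 CPM) and low in C1q macrophage-like cells (1.27 CPM).

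For each member the genes most like it were sought over 80 sums of a class in a library that held at least 20 cells, by the Pearson correlation of log2(CPM + 1) among 13827 genes. These sums share libraries and depth, and the values are descriptions. Ccl2 was most like Ccl7 (r = 0.79), with Abca9 (0.75) also near it, and Ccl7 was most like Ccl2, Scamp5 (0.75) and Ccl12 (0.74). Ccl8 was nearest to Pla2g2d (0.79), Folr2 (0.76) and Kcnj10 (0.75), and Ccl12 to Ms4a14 (0.89), Folr2 (0.86) and Kcnj10 (0.85), so that Folr2 and Kcnj10 were in both lists. Ccl24 followed C3ar1, Mmp12 (both 0.66) and Arg1 (0.65), and Ccl11 followed the fibroblast genes Cilp, Thbs2 (both 0.92) and Galnt17 (0.90). Between the eotaxins the correlation was -0.09, and between Ccl11 and the other members it ran from -0.09 to 0.26.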

How the data were processed

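Mouse lung cells were profiled by 3′ droplet sequencing. The authors made the deposited table of raw UMI counts, per its header, with Cell Ranger 3.1.0 (STAR and mm10 per the submitters' processing notes), and their methods state that reads were down-sampled to equalise libraries, so levels between libraries are on a common read depth as far as that step reached. The deposited counts precede the authors' cell filter, and their normalized values and cell types were not analysed here.

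Here, barcodes of libraries 1, 2, 3 and 7 with at most 10% mitochondrial UMIs (13 genes) were kept, scaled to 10000 UMIs, and embedded on 2000 variable genes and 30 components aligned by mutual nearest neighbors. Leiden clusters (leidenalg 0.10.2, 20 neighbors, resolution 0.8) were named from 29 marker lists, given that at least 3 markers were each seen in 10% of cells. The scoring rule and the rule that leaves mixed lineages unnamed were set after the clusters were seen. The 6 members were kept out of every clustering. UMIs were summed per class and library and divided by all UMIs of those cells (CPM), with exact Poisson intervals for CPM, exact conditional intervals for ratios and Clopper-Pearson intervals for shares (scipy 1.17.1), each at 95%. A count of 0 allows 3 UMIs. The counting, interval and ratio code was tested on simulated data. Since 1 library stands for each number and none has a group, no test was run. Doublets were called with Scrublet (scanpy 1.11.5), at 2.21%, 5.63%, 3.28% and 0.757% of cells, and were left out only as an alternative.

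Named genes were the 6 members, 3 pathway lists of receptors, inducing cytokines and signalling genes, and the 3 genes most like each member, less some that are not reported here. Members and lists were chosen with earlier results of these data known. The alternatives were a 5% mitochondrial limit, a filter of 2 standard deviations on UMIs and genes, no alignment, resolution 0.4, marker gates without clusters, equal weight for libraries, called doublets left out and each library left out. Gene models came from GENCODE M21 and promoters from RefSeq.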

Additional observations from a re-analysis of the deposited data

Results flagged for a closer look

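Libraries 4, 5 and 6, in which hemoglobin genes gave 35.3% to 40.6% of UMIs, entered no comparison, yet held more UMIs of some members than the 3 that a count of 0 allows. Ccl2 had 116 UMIs in 66 cells of library 4, 13 UMIs in 8 cells of library 5 and 14 UMIs in 9 cells of library 6. Ccl24 had 10 UMIs in 8 cells of library 4 and 7 UMIs in 4 cells of library 6. No UMI of Ccl7, Ccl8 or Ccl11 was seen in these 3 libraries, and Ccl12 had 1 UMI in library 6. No library is known to be a control, and the counts have no background beside them.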

How the results depend on the processing

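The level of each member in its leading class was recomputed under 12 alternatives. Of 72 values, 28 stayed within the 95% interval of the value reported and 12 moved by more than 1.5 times. The causes were not tested. In the order Ccl2, Ccl7, Ccl8, Ccl11, Ccl12 and Ccl24, the levels were 445, 333, 782, 170, 518 and 186 CPM with a mitochondrial limit of 5%, and 281, 204, 913, 104, 248 and 278 CPM with marker gates in place of clusters. Without the 10 cells with the most UMIs of the gene, an alternative chosen after seeing the data, they were 267, 194, 927, 120, 293 and 375 CPM. With equal weight for each library Ccl2 was 415, Ccl7 325, Ccl8 1111 and Ccl24 379 CPM. A filter at 2 standard deviations of UMIs and genes gave 360 CPM for Ccl2 and 207 CPM for Ccl24. Ccl24 was 474 CPM without alignment, 501 CPM at resolution 0.4 and 529 CPM without called doublets.

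Leaving out each library in turn moved Ccl2 between 271 (without library 2) and 521 CPM, Ccl7 between 207 (without library 2) and 409 CPM, Ccl8 between 694 (without library 1) and 1769 CPM, Ccl11 between 157 and 217 CPM, Ccl12 between 313 and 515 CPM, and Ccl24 between 114 (without library 7) and 952 CPM (without library 1). In 4 of 60 comparisons another class held the most UMIs of a gene. These were the Arg1 class for Ccl2 and Ccl7 without library 2 and for Ccl7 at the 5% limit, and the C1q class for Ccl24 without library 7. No paired analysis was possible because the libraries carry no replicate number and no group.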
